A study of Mus musculus with 8 samples.

Results

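Histone H3 acetylated at lysine 9 (H3K9ac) was profiled by ChIP-seq in frozen whole bone marrow (BM) cells of *NUP98-HOXD13-tg* C57BL/6 mice, and 543 regions are described here that carried a peak in all 3 vehicle libraries and in none of the 3 curcumin libraries. The peaks of the 6 deposited lists were merged where they overlapped by at least 1 bp, which gave 64462 regions, and the 543 were chosen by the presence or absence of a listed peak. They made up 0.842% of all merged regions and 2.47% of the 21940 regions with a peak in every vehicle list. Since presence chose them, it is not a finding, and their strength is given as a description without a test.

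Each library came from 1 of 6 groups, with 1 vehicle and 1 curcumin library for *GFI1-36S*, *GFI1-36N* and *GFI1-KD* mice, all carrying the *NUP98-HOXD13* transgene, which the Vav promoter drives in blood cells. *GFI1-36S* and *-36N* mice carry a knocked-in human *GFI1* variant and *GFI1-KD* mice express it at a reduced level. Curcumin was injected intraperitoneally at 20 mg/kg once a week, and the labels describe the vehicle mice as without curcumin, while the study's methods give them an equal volume of DMSO. The groups therefore share the transgene, the strain and the tissue, and differ by the labels in the *GFI1* allele and in curcumin. By the names of its deposited lists *GFI1-36N* was heterozygous in the vehicle library and homozygous in the curcumin library, a difference absent from the labels, so that curcumin and this allele dose cannot be told apart in *GFI1-36N*. The labels call the cells whole BM, while a figure title of the study speaks of c-kit+ cells, and no sort is described in its ChIP methods. In a mixture of cells a region can lose its peak because fewer cells of a type were present or because the mark was lower in each cell, and these cannot be told apart here. Each group is 1 library, so that differences could not be set against the spread between mice of a group. The 3 genotypes were not used as replicates of a treatment, and no p-values are reported. Mice were taken when they showed signs of leukaemia or reduced health, and their number per library, age and sex are not given in the sources used here.

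In the 6 lists, 20354 to 49213 peaks were deposited per library, and the median summit of a library held 24 to 36 fragments. The *GFI1-36S* curcumin library stood apart from the others. It had the shortest list, carried peaks at 16 of 18 T-cell promoters against 6 to 10 in the others, at 1 of 25 neutrophil promoters against 14 to 23, and 3 peaks on chromosome Y where no other list had any. The names of the deposited *GFI1-36S* lists state the opposite treatments to the sample titles. The titles were followed, and with these lists exchanged the same rule gave 36 regions, none of which overlapped a member named below by the rule for named genes. Left out of the rule, the *GFI1-36S* curcumin list changed the number of regions little, to 587.

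Acetylation of lysine 9 on histone H3 is laid down by histone acetyltransferases and removed by deacetylases, and it marks active promoters and, more weakly, active enhancers. GFI1 is a zinc-finger repressor of blood cell formation that recruits deacetylases to its targets. Erythroid cells, the red cell precursors that expand in the marrow, depend on GATA1 and its partners, which bind GATA motifs at the genes of haemoglobin, heme synthesis and the membrane skeleton.

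The sequence at the summit is shown for 6 of the members described below. They lie at the heme enzyme gene *Alas2*, an intronic site of *Tmcc2*, a site upstream of *Notch2*, the promoter of the anion exchanger gene *Slc4a1*, and the promoters of the interferon-stimulated genes *Rsad2* and *Tap1*. Each run is 300 bases of the plus strand of GRCm38 (mm10) from RefSeq, centred on the summit of the strongest vehicle peak, and capitals mark the GATA motif AGATAA or its reverse complement TTATCT.
Alas2 chrX:150548057-150548356: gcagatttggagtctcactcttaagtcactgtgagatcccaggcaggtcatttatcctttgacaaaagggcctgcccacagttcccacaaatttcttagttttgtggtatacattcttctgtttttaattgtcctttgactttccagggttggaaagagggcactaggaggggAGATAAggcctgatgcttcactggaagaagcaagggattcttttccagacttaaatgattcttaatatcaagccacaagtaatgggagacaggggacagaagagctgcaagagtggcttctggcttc
Tmcc2 chr1:132382099-132382398: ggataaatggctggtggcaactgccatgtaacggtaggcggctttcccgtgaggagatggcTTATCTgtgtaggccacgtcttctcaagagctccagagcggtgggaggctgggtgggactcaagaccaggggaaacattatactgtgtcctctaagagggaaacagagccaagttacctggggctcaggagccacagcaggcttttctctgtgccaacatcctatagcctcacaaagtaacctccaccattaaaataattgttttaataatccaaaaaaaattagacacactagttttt
Notch2 chr3:98009652-98009951: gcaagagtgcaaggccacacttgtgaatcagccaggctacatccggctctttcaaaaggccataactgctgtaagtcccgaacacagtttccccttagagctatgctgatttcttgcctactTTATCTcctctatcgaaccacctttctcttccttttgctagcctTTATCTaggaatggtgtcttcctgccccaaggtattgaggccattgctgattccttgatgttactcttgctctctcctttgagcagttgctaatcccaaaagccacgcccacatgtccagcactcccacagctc
Slc4a1 chr11:102365461-102365760: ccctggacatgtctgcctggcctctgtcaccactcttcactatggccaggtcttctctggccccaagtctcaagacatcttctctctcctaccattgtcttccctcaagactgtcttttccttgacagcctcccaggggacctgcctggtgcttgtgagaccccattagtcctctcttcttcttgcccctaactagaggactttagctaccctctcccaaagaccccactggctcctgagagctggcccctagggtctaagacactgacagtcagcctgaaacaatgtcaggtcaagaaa
Rsad2 chr12:26454946-26455245: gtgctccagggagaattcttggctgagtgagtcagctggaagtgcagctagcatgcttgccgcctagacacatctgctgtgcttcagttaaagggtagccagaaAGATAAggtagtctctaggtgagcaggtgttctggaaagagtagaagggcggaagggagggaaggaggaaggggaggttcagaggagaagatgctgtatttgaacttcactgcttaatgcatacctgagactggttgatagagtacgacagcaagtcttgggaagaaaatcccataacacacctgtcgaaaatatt
Tap1 chr17:34188894-34189193: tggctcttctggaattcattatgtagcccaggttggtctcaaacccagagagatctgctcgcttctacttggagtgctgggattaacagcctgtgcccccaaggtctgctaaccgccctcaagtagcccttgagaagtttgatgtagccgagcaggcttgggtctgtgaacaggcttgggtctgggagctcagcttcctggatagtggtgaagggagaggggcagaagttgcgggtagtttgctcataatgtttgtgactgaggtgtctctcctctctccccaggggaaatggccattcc

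The *Alas2*, *Tmcc2* and *Rsad2* windows each held 1 GATA motif and the *Notch2* window 2, and the *Slc4a1* and *Tap1* windows held none. These 6 windows do not stand for the members as a set. The motif was found in 13.1% of all members and in 12.5% of all merged regions. Among members of the erythroid list, only the intronic *Tmcc2* member and the exonic *Bcl11a* member held it. None of the 6 held the interferon response core GAAANNGAA, also in the windows of *Rsad2* and *Tap1*. A match is a description of the letters in a window and not a bound site, and the lack of a match says nothing of the factor.

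Few regions lost the peak in every curcumin library. Of the 21940 regions in all vehicle lists, 11128 kept a peak in all 3 curcumin lists and 7832 in *GFI1-36N* and *-KD* but not in *-36S*. The *GFI1-36S* curcumin list lacked 47.6% of these regions, the *GFI1-KD* list 12.1% and the *GFI1-36N* list, the longest, 4.18%. A peak in 1 curcumin list alone was found at 2103 regions, namely 1747 times in *GFI1-36N*, 313 times in *GFI1-KD* and 43 times in *GFI1-36S*. The opposite pattern, a peak in all curcumin lists and in no vehicle list, was met by 13 regions. It needs a peak in the *GFI1-36S* curcumin list, which held 20354 peaks against 39272 to 41312 in the vehicle lists. The share of these 13 among regions of all curcumin lists was not taken, and the part of list length in either number was not tested.

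**Figure D1:**
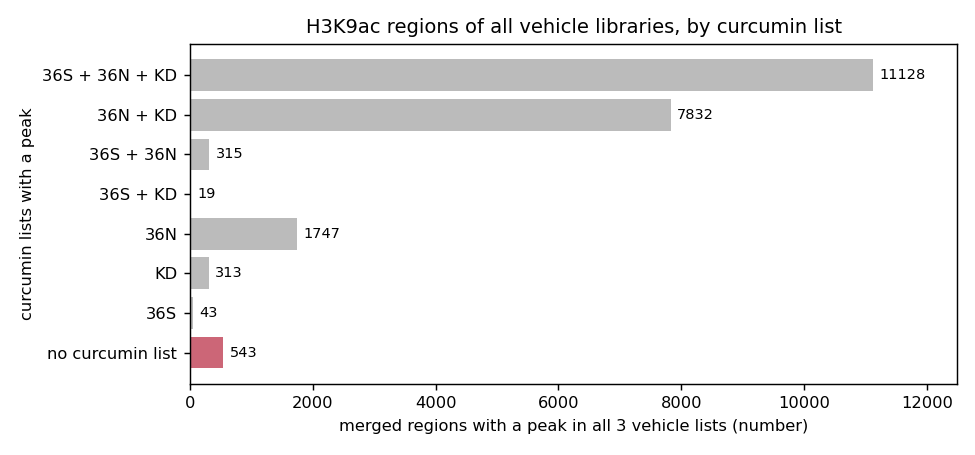
Number of merged H3K9ac regions with a peak in all 3 vehicle lists (x axis), by the curcumin lists that also held a peak (y axis). The 543 regions without a curcumin peak are in red, beside 11128 regions with a peak in all 3 curcumin lists and 7832 with one in GFI1-36N and GFI1-KD alone.

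The members lay mostly away from promoters. Their summit fell in an intron in 320 of 543 regions (58.9%, Wilson 95% interval 54.7% to 63.0%, counting error only) and between genes in 105 (19.3%, 16.2% to 22.9%). It lay within 1 kb of the transcription start site (TSS) of a protein-coding gene in 82 regions (15.1%, 12.3% to 18.4%) and in another exon in 36 (6.63%). Over all merged regions, promoters made up 25.3% and introns 44.8%. Among regions of all 3 vehicle lists, promoters made up 50.9% and introns 26.6%, and among regions of all 6 lists promoters made up 79.4%. The members' share of promoters was thus the lowest among these sets. Members are themselves part of all merged regions and of the regions of all vehicle lists, so that the intervals do not compare separate samples. They were also weaker than the regions of all vehicle lists, as given below. The part of strength in the promoter share was not tested. With a −log10 q of at least 5 in all lists promoters made up 22.3% of members and 32.2% of all merged regions, and with equal numbers of top peaks 25.4% and 41.2%. Promoters made up 31.9% of the members with a window of 3 kb in place of 1 kb, and the other sets were not classed with that window. The median distance from the summit to the nearest coding TSS was 6447 bp in members, 778 bp in regions of all vehicle lists and 6104 bp in all merged regions. Farther than 50 kb from any TSS lay 55 members (10.1%).

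**Figure D2:**
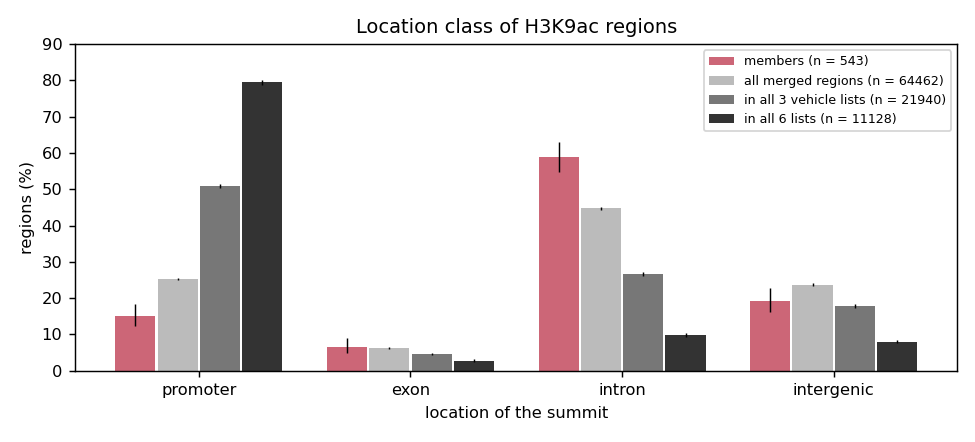
Share of regions (y axis, percent) by the location of the summit (x axis) for the 543 members, all merged regions, regions in all 3 vehicle lists and regions in all 6 lists, with Wilson 95% intervals. Members are 15.1% promoter and 58.9% intron, against 50.9% and 26.6% of regions in all 3 vehicle lists.

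Members were weak, and narrower than regions of all vehicle lists though not than all merged regions. Their median width was 678 bp, against 1549 bp in regions of all vehicle lists and 519 bp over all merged regions. The fold enrichment is the authors' ratio of summit to local background fragments. It ranged in members from 2.20 to 14.6 in *GFI1-36S* vehicle (median 3.71), from 2.20 to 8.34 in *GFI1-36N* vehicle (median 3.45) and from 2.08 to 15.2 in *GFI1-KD* vehicle (median 3.99). The medians over regions of all vehicle lists were 8.18, 7.62 and 8.89 in the same order, so that members lay well below them in each library. The median member summit held 22 fragments with *GFI1-36S*, 23 with *GFI1-36N* and 30 with *GFI1-KD* vehicle, and the lowest 15, 16 and 19.

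Fold enrichments are not scaled between libraries, and each was therefore also ranked within its own list from 0 to 100. The median member stood at the percentile 31.4 in *GFI1-36S*, 26.7 in *GFI1-36N* and 39.5 in *GFI1-KD* vehicle. The *GFI1-KD* percentile was the highest of the 3 in 289 members and the *GFI1-36N* percentile the lowest in 277. The lowest of the 3 percentiles, used below as the score of a member, had a median of 14.8 and a maximum of 56.7, and it was under 10 in 205 members and at least 50 in 10. All 3 vehicle peaks reached a −log10 q of 5 in 116 members, and none did in 76. Across the 543 members, Spearman's rho of the fold was 0.46 between *GFI1-36S* and *-KD* vehicle, 0.12 between *-36N* and *-KD* and 0.10 between *-36S* and *-36N*, over members that share their libraries.

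**Figure D3:**
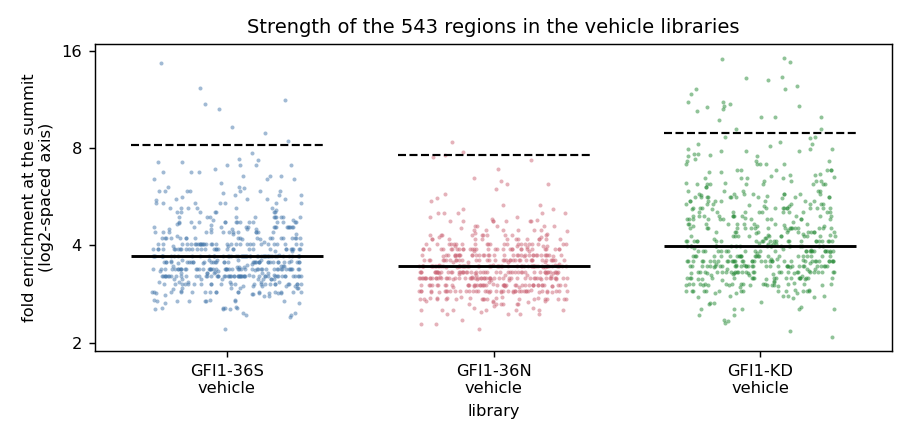
Fold enrichment at the summit (y axis, log2-spaced) of each of the 543 regions in the 3 vehicle libraries (x axis). Solid lines mark the members' medians of 3.71, 3.45 and 3.99, dashed lines the medians of 8.18, 7.62 and 8.89 over regions of all 3 vehicle lists.

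The weakest members lay at the edge of what the lists hold. Nearest inside the rule were regions at *Tpm1*, *Actn4* and *Ptk2b*, whose weakest vehicle peak had a −log10 q of 1.34, 1.36 and 1.40. Just outside were regions at *Popdc2*, *Usp25* and *Hectd4*, with a peak in 1 curcumin list at a −log10 q of 1.48, 1.48 and 1.62. In regions with all 3 vehicle peaks and a peak in *GFI1-36N* curcumin alone, that peak had a median −log10 q of 7.24 and a median fold of 3.98, and in 484 of 1747 it was under 5.

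The distance from each member to the nearest curcumin peak was measured, without the same measure over other regions. Whether a vehicle library also had that peak was not examined. The nearest curcumin peak began within 1 kb of 180 members (33.1%), and farther than 10 kb from 124 (22.8%). The median gap was 2641 bp to the nearest peak of any curcumin library, 3263 bp in *GFI1-36N*, 5146 bp in *GFI1-KD* and 16104 bp in *GFI1-36S* curcumin. The genes near members mostly kept their own promoter peak. Of 419 genes nearest to a member outside promoters, 302 (72.1%) had a promoter peak in all 6 libraries, against 63.0% of genes nearest to any region. Where both libraries of a genotype had the promoter peak, its percentile with curcumin minus vehicle had a median of −11.2 near members and −10.5 over genes nearest to any region in *GFI1-36S*. For *GFI1-36N* the same medians were 0.74 and 2.37, and for *GFI1-KD* −3.51 and −3.76.

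Members were spread over the autosomes and chromosome X. They made up 3.79% of the regions of all vehicle lists on chromosome 19 and 3.30% on chromosome 4, but 0.811% on chromosome 6 (9 members), 0.677% on chromosome 15 (5 members) and 0.423% on chromosome X (2 members). Chromosome 15 held 6.41% of all peaks of *GFI1-36S* curcumin and 5.17% of *GFI1-36N* curcumin, against 3.26% of *GFI1-KD* curcumin, 4.60% of *GFI1-36N* vehicle and 2.97% and 2.95% of *GFI1-36S* and *GFI1-KD* vehicle. The part of this difference in the members' number there was not tested.

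By sequence, members differed little from other regions of the same kind. The 300 bases around the summit had a median GC content of 48.7% and 3 CpG dinucleotides, against 50% and 5 over all merged regions and 55.7% and 10 in regions of all vehicle lists. Outside promoters the median GC content was 48.3% in members and in all merged regions. Each motif was searched on both strands. The GATA motif AGATAA was found in 71 members (13.1%, 10.5% to 16.2%) and in 12.5% of all merged regions. The interferon response core GAAANNGAA occurred in 9.76% and 10.7%, the RUNX motif TGTGGTT in 9.02% and 7.04%, the PU.1 motif GAGGAAGT in 4.42% and 3.08%, and the GFI1 core AAATCAC in 2.39% and 3.25%. The C/EBP motif TTGCNNAA (9.94% and 10.9%), the AP-1 motif TGANTCA (8.29% and 7.97%), the E-box CAGCTG (18.4% and 18.4%), the ETS motif CCGGAAG (2.76% and 3.53%) and the CACCC box CCACACCC (2.76% and 3.02%) made up the rest. For each of the 10 motifs the Wilson interval of the members' share held the share of all merged regions. In members and in regions of all vehicle lists, the GATA share was 13.1% and 8.30% and the RUNX share 9.02% and 5.45%. The PU.1 share was 4.42% and 2.8%, AP-1 8.29% and 6.09%, and ETS 2.76% and 6.05%. Outside promoters these 2 sets were closer, with 13.9% and 12.7% for GATA and 9.54% and 8.01% for RUNX. There PU.1 had 4.77% and 3.98%, AP-1 9.11% and 8.98%, and ETS 2.60% and 3.78%.

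The nearest protein-coding genes of the members were 491 of 21924 (2.24%), and 93 genes (0.424%) had a member that overlapped the 1 kb on either side of their TSS. Of the 10 gene lists examined, the erythroid list had the largest share of its genes near members. Of 49 erythroid genes 13 (26.5%) were nearest to a member, with 17 members among them, and 7 had a member at the promoter. Megakaryocyte genes followed with 3 of 15 and interferon-stimulated genes with 6 of 60. A nearest gene was found for 1 of 9 heme biosynthesis, 1 of 25 neutrophil, 1 of 20 monocyte and macrophage, 1 of 18 T-cell, 1 of 18 B-cell, 1 of 24 stem and progenitor and 0 of 12 NK-cell genes. The lists were chosen with earlier results of these data known, and no test was run on them. Among genes that were nearest to any merged region, the share was 27.1% for erythroid, 10.5% for interferon-stimulated and 3.47% for all coding genes.

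Erythroid promoters carried fewer peaks as a list in the libraries labelled curcumin, in part by the rule that chose the members. For *GFI1-36S* this rests on the sample titles, and by the file names the number went up, from 13 with vehicle to 43 with curcumin. A peak was present at 43, 40 and 46 of 49 in *GFI1-36S*, *-36N* and *-KD* vehicle, and at 13, 37 and 30 with curcumin. Of the 49 promoters 7 held a member, which by the rule has a peak with vehicle and none with curcumin. The counts are therefore not separate from the members. In *GFI1-36N*, *Add2*, *Epb42*, *Slc4a1* and *Trim10*, each with a promoter member, and *Aqp1* had a promoter peak with vehicle alone. *Car1* and *Gata1* had one with curcumin alone. The percentiles of the strongest promoter peak summed over the list to 3299.5, 2637 and 3587 with vehicle, and to 864, 2706 and 1727 with curcumin. Thus in *GFI1-36N* mice fewer promoters had a peak while the sum was higher with curcumin. The defining genes *Hbb-bh1*, *Hbb-y* and *Slc25a37* had no promoter peak in any library, and *Gata1* had none in *GFI1-36N* vehicle nor in *GFI1-36S* and *-KD* curcumin. For comparison, 53.1%, 52.9% and 54.8% of all coding genes had a promoter peak with vehicle and 45.2%, 55.2% and 51.7% with curcumin. Neutrophil promoters with a peak numbered 22, 19 and 23 of 25 with vehicle and 1, 19 and 14 with curcumin, and 1 of the 25 held a member. The part of such shifts in cell types in the members was not tested. The 13 erythroid genes were among 491 coding genes nearest to a member. With the *GFI1-36S* curcumin list left out of the rule they were 13 of 531. They were 13 of 336 when members within 1 kb of a curcumin peak were left out. With a −log10 q of at least 5 they were 12 of 310 in all lists and 5 of 110 in the vehicle lists alone. Equal numbers of top peaks gave 6 of 186, and the *GFI1-36S* lists exchanged 0 of 36. The number of nearest genes thus changed with the setting as well.

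**Figure D4:**
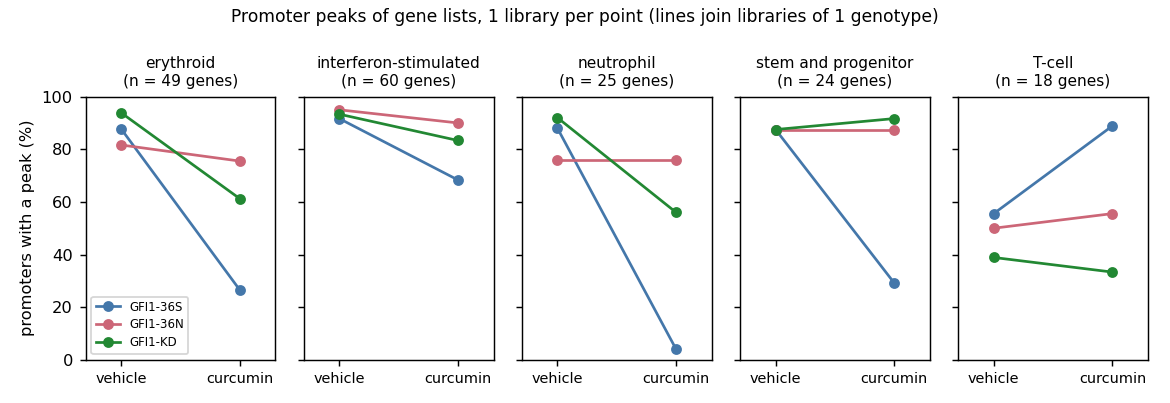
Share of the promoters of a gene list with a peak (y axis, percent) in the vehicle and curcumin library (x axis) of each genotype, 1 library per point. Erythroid promoters with a peak went from 87.8% to 26.5% in GFI1-36S, from 81.6% to 75.5% in GFI1-36N and from 93.9% to 61.2% in GFI1-KD, while T-cell promoters went from 55.6% to 88.9% in GFI1-36S. Promoters with a member, 7 of the 49 erythroid ones, count with vehicle by the rule.

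*Slc4a1*, the gene of the band 3 anion exchanger of red cells (chr11:102348824-102366203, minus strand), had 2 members. The member over its promoters at chr11:102365359-102366749 had a fold of 3.89 in *GFI1-36S*, 4.38 in *GFI1-36N* and 9.74 in *GFI1-KD* vehicle, from 25, 31 and 80 fragments. The wider member at chr11:102373579-102377364, at −9569 bp from the TSS, was among the strongest with folds of 7.07, 4.75 and 14.8. In each of them *GFI1-KD* was the highest library. The nearest curcumin peak lay 720 bp from the promoter member, in *GFI1-KD*, and 39578 bp and 39947 bp away in *GFI1-36N* and *GFI1-36S* curcumin.

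*Tmcc2*, a transmembrane coiled-coil protein gene of the erythroid list (chr1:132356315-132391281), had 3 members. At its downstream promoter (chr1:132365937-132367892) the folds were 7.74, 4.89 and 10.7 in *GFI1-36S*, *-36N* and *-KD* vehicle, and at its upstream promoter (chr1:132389411-132390461) 6.01, 5.03 and 8.61. The intronic member at chr1:132381624-132382780, whose summit sequence with a GATA motif is shown above, had 4.72, 3.16 and 4.58. The upstream member ended 314 bp from a *GFI1-36N* curcumin peak and 334 bp from a *GFI1-KD* curcumin peak. Of the 5 other regions nearest to *Tmcc2*, 4 had a peak in *GFI1-36N* curcumin, 2 in *GFI1-KD* curcumin and 0 in *GFI1-36S* curcumin.

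The genes of the red cell membrane skeleton *Add2* (β-adducin), *Epb42* (protein 4.2) and *Sptb* (β-spectrin) each had 1 member. At the *Add2* promoter the folds were 9.25, 3.60 and 12.2 in *GFI1-36S*, *-36N* and *-KD* vehicle, and the nearest curcumin peak of any library was 115126 bp away. At *Epb42* they were 6.57, 3.04 and 8.63, with no curcumin peak within 25558 bp. In both, *GFI1-36N* was the weakest library. Neither gene had a peak in any curcumin library at any region nearest to it. The *Sptb* member was intronic, with 3.71, 2.88 and 5.46.

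*Trim10*, a RING finger protein gene required for terminal red cell differentiation, had a promoter member with folds of 12.3, 4.32 and 11.0 from 72, 29 and 79 fragments. *Rhd*, of the Rh blood group antigen, had 8.92, 3.45 and 7.67. *Xpo7*, a nuclear export receptor, had a weak member of 2.86, 3.31 and 3.02 at an internal promoter, while 1 other region of the gene kept a peak in all 6 libraries. *Trim10* and *Rhd* were highest in *GFI1-36S* vehicle and lowest in *GFI1-36N* vehicle. The nearest curcumin peak was 31547 bp from the *Trim10* member and 2994 bp from that of *Rhd*.

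*Alas2* encodes the erythroid isoform of 5-aminolevulinate synthase, the first and rate-limiting enzyme of heme synthesis, and was the only heme enzyme gene of 9 nearest to a member. Its member at chrX:150547445-150549605 overlapped the promoter with folds of 3.55 in *GFI1-36S*, 2.64 in *GFI1-36N* and 7.81 in *GFI1-KD* vehicle. The fragments at the summit numbered 20, 21 and 56, so that the *GFI1-36S* and *-36N* values rest on few fragments. Of 5 regions nearest to *Alas2*, 2, 1 and 5 had a peak in these vehicle libraries and 0 in each curcumin library. With curcumin, 6 of 9 heme enzyme promoters had a peak in each genotype, and *Alas2* was without a peak in all 3.

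The other erythroid members lay outside promoters. The member at −1464 bp from the TSS of the α-globin gene *Hba-a1* had folds of 3.71, 2.90 and 4.64, and reads there may be shared with the near-identical copy *Hba-a2*. The member nearest to the embryonic globin gene *Hbb-y* had 3.71, 3.17 and 9.18. *Zfpm1*, the gene of the GATA1 partner FOG1, had an intronic member of 4.72, 3.17 and 5.90, and 3 other regions nearest to it had a peak in all 6 libraries. *Lmo2*, a bridging factor of the same complex that was also in the stem and progenitor list, had 3.04, 2.74 and 3.44. Both members of the zinc-finger factor gene *Bcl11a* lay between 3.17 and 3.63 in all vehicle libraries. Of the 17 erythroid members, *GFI1-KD* had the highest within-list percentile in 13 and *GFI1-36N* the lowest in 13. The medians were 52.2 in *GFI1-36S*, 15.9 in *GFI1-36N* and 68.6 in *GFI1-KD* vehicle, against 31.4, 26.7 and 39.5 over all members.

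**Figure D5:**
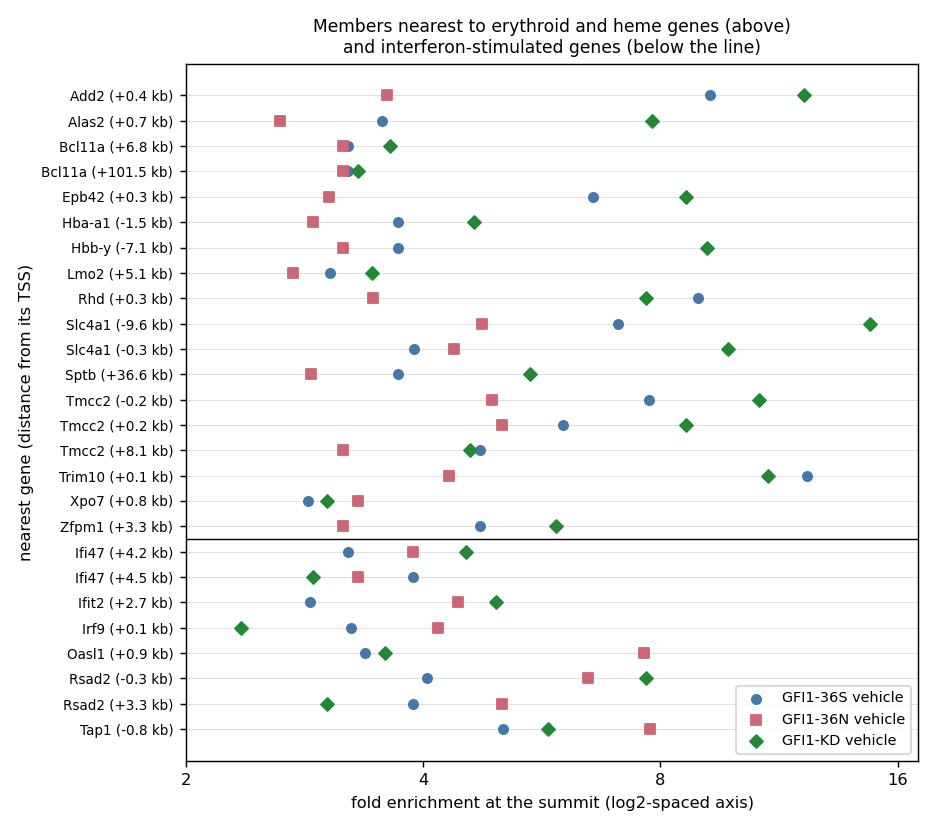
Fold enrichment at the summit (x axis, log2-spaced) in the 3 vehicle libraries for members nearest to erythroid and heme genes (above the line) and to interferon-stimulated genes (below it), with the distance to the TSS. GFI1-36N vehicle is lowest at sites such as Trim10 (4.32 against 12.3 and 11.0) and highest at Oasl1 (7.62 against 3.38 and 3.58).

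Interferon-stimulated genes had 8 members. Promoters are those of any annotated transcript, and at *Rsad2*, *Tap1* and *Irf9* the TSS nearest to the member lay inside the gene. *Rsad2*, the antiviral protein viperin, had a promoter member at chr12:26454644-26455596 with folds of 4.05, 6.47 and 7.67 in *GFI1-36S*, *-36N* and *-KD* vehicle and an intronic one with 3.88, 5.03 and 3.02. *Tap1*, a subunit of the peptide transporter for antigen presentation, had a member at chr17:34188876-34189493 with 5.06, 7.76 and 5.76. *Oasl1*, of the oligoadenylate synthetase family, had 3.38, 7.62 and 3.58. The *GFI1-36N* value was the highest of the 3 at *Tap1*, *Oasl1* and the intronic *Rsad2* member, and *GFI1-KD* was highest at the *Rsad2* promoter.

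*Irf9*, a subunit of the factor that interferon activates, had a member at an internal promoter with 3.24, 4.17 and 2.35, and another region of the gene had a peak in all 6 libraries. The member of *Ifit2* had 2.87, 4.43 and 4.94. The 2 intronic members of the GTPase gene *Ifi47* had 3.21, 3.88 and 4.53, and 3.88, 3.31 and 2.90. *Tap1*, *Ifit2* and *Ifi47* each also had 1 other region with a peak in all 6 libraries, while *Oasl1* and *Rsad2* had none. In no member of this list was the *GFI1-36N* percentile the lowest. The members lay beside curcumin peaks more closely than those of the erythroid list, with a median gap of 1035 bp against 3842 bp and 4 of 8 within 1 kb against 2 of 17. At *Tap1* a peak of every curcumin library began 232 to 243 bp away. Of the 6 genes, 4 remained when members within 1 kb of a curcumin peak were left out. Interferon-stimulated promoters with a peak numbered 55, 57 and 56 of 60 with vehicle and 41, 54 and 50 with curcumin, and their summed percentiles were 4371, 4896 and 4707, and 2488, 4124 and 3530. Of these 60 promoters 4 held a member and so count with vehicle by the rule.

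Genes of platelet-forming megakaryocytes had 3 members. The *Vwf* member, at an internal promoter of the von Willebrand factor gene, had folds of 5.56, 3.45 and 4.81. *Tubb1*, the β-tubulin of platelets, had an intronic member with 3.37, 3.31 and 3.90, the only merged region nearest to the gene. The *Thbs1* member, at −100139 bp from the TSS of thrombospondin 1, had 3.88, 3.88 and 3.80. Promoters of this list with a peak numbered 8, 8 and 9 of 15 with vehicle and 2, 8 and 6 with curcumin, and 1 of the 15 held a member.

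The widest member, of 7586 bp, began at the promoter of *Ltf*, the gene of the neutrophil granule protein lactoferrin, with folds of 4.39, 3.56 and 11.1. No curcumin peak was within 7677 bp of it. *Lyz2*, lysozyme of monocytes and neutrophils, had an intronic member of 4.05, 3.45 and 7.13, and a curcumin peak began 316 bp away in *GFI1-KD* and 419 bp away in *GFI1-36N*. The member nearest to *Fcrla*, a B-cell gene, had 3.35, 3.74 and 3.24. *Ltf* and *Lyz2* were highest in *GFI1-KD* vehicle, and *Fcrla* in *GFI1-36N* vehicle.

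Among the 15 members with the highest scores, 6 lay within 1 kb of a curcumin peak. A member that shared the highest score with the upstream *Tmcc2* promoter member, in an annotated exon at −157684 bp from the TSS of *Hsfy2*, had folds of 5.90, 5.03 and 5.76, and no curcumin peak within 177042 bp. The member in *Trim12a* (5.06, 6.33 and 7.26) and that near *Gm11084* (4.72, 4.75 and 4.94) had peaks of all curcumin libraries within 139 to 258 bp. *Btnl10*, a butyrophilin-like gene, had a promoter member of 4.89, 4.60 and 13.3, and *Rab3il1*, an exchange factor gene, a promoter member of 7.37, 4.32 and 11.1. The promoter member of *Dhtkd1*, a mitochondrial dehydrogenase gene, had 5.56, 4.46 and 4.67. The members near *Malt1* (5.73, 4.46 and 4.94), *Crim1* (5.23, 4.60 and 4.53), *Nedd9* (5.06, 4.32 and 8.08) and *Rlf* (4.55, 4.32 and 7.95) lay in introns or between genes. Of the other wide members, those over the promoters of *Dhrs9* (3909 bp) and *Syne1* (3858 bp) had folds of 7.41, 4.03 and 13.1, and of 6.74, 3.23 and 13.0. All 5 of the widest members, with *Ltf*, *Slc4a1* and *Rab3il1*, were highest in *GFI1-KD* and lowest in *GFI1-36N* vehicle.

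*Notch2*, a receptor of cell fate decisions, was nearest to 5 members, more than any other gene. They had folds of 2.39 to 3.88 in *GFI1-36S*, 2.60 to 4.17 in *GFI1-36N* and 3.44 to 5.22 in *GFI1-KD* vehicle. The strongest in score, at −3725 bp from the TSS and chr3:98009487-98010006, had 3.88, 3.56 and 3.99 and a summit with 2 GATA motifs. The members of *Eps15l1* numbered 3 and those of *Adcy9* and *Adipor2* 2 each, all in introns and with folds between 2.54 and 4.40. In all 44 genes had 2 members, among which *Adcy9* and *Adipor2* come first by alphabet. Within 20 kb of another member lay 68 of the 543.

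Of the genes that the study names, *Mcl1*, a survival factor of the BCL2 family, and *Alas2* were each nearest to 1 member. The *Mcl1* member lay 6234 bp downstream of the TSS with folds of 3.88, 3.02 and 3.44, and the promoter of the gene had a peak in all 6 libraries. No member was nearest to *Gfi1*, *Gfi1b*, *Kit*, *Hoxa9*, *Hmox1* or *Mycn*. The promoters of *Gfi1* and *Hmox1* had a peak in all 6 libraries. At *Kit*, the gene of the c-kit receptor, 17, 3 and 5 regions had a peak in *GFI1-36S*, *-36N* and *-KD* vehicle and 0, 7 and 1 with curcumin. At *Gfi1b*, an erythroid relative of *Gfi1*, the numbers were 5, 2 and 7 and 0, 4 and 1. Over all merged regions, 33503, 33234 and 36092 had a peak with vehicle and 15855, 42017 and 25321 with curcumin. By the file names, the vehicle and curcumin numbers of *GFI1-36S* change places at both genes.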

How the data were processed

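H3K9ac peaks of 6 libraries, 1 per group, were analysed. Control samples (input and rabbit IgG) were not analysed here. By the study's methods, the authors used Trim Galore for adapters, BWA-MEM for mapping to mm10 and MACS2 for the peaks of each library, less ENCODE black list regions. Versions, thresholds and the control behind each list are not given in the sources used here. The deposited fold enrichment is a ratio of the summit to the local background. The deposited −log10 p and −log10 q and the integer score are the authors' MACS2 values. None of them is scaled from library to library.

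Peaks were merged where they overlapped by at least 1 bp, and the peak with the highest fold gave a region's summit. Location classes, in the order promoter, exon, intron and intergenic, used all TSSs of 21924 protein-coding gene symbols of GENCODE release M21 (GRCm38, the assembly of mm10). Bases came from the RefSeq GRCm38.p6 sequence. The fragments at a summit were recovered from the relation of fold and p in MACS2. A whole number of fragments within a tolerance of 0.02 was found for every peak with a −log10 p below 250, and stronger peaks were left without a value. They are the pileup at the summit and not read totals, which the lists do not hold. Wilson 95% intervals cover counting error only. Of 251 listed gene symbols those in the annotation were used. Python 3.11.15, numpy 2.4.6, pandas 2.3.3 and scipy 1.17.1 were used, and the steps were tested on simulated data.

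The members, the gene lists and the rules were chosen with earlier results of these data known. The genes named are those of the 15 highest scores, the 5 widest members, listed genes with a member, the 5 genes with most members and the genes named by the study. Not every gene under this rule is named. Other settings tried were a minimum −log10 q of 5 in all lists or in the vehicle lists, equal numbers of top peaks, gaps of up to 500 bp merged, no merging, the *GFI1-36S* lists exchanged, autosomes alone, each genotype left out, other promoter definitions and genes within 50 kb. The rule without the *GFI1-36S* curcumin list and members farther than 1 kb from every curcumin peak were added after the data were seen. No test across mice was run, since each group is 1 library.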

Additional observations from a re-analysis of the deposited data

Results flagged for a closer look

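With curcumin against vehicle, the number of T-cell promoters with an H3K9ac peak changed by 6 in *GFI1-36S* and by 1 in *GFI1-36N* mice, and by −1 in *GFI1-KD* mice, of 18 promoters. The number of stem and progenitor promoters with a peak changed by −14 in *GFI1-36S*, by 0 in *GFI1-36N* and by 1 in *GFI1-KD* mice, of 24 promoters. These lists came up because the genotypes moved in opposite directions, and the difference between them was not tested, since each value is that of 1 pair of libraries. With the *GFI1-36S* treatments exchanged, as the file names give them, its values become −6 for the T-cell and 14 for the stem and progenitor list, and the genotypes then no longer move in opposite directions in the stem and progenitor list. At most 1 of the 543 members was nearest to a gene of either list.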

How the results depend on the processing

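The rule depends on thresholds and labels, and stricter settings selected in part other regions. Of the 58 members under the rule for named genes, 26 overlapped a member with a −log10 q of at least 5 in all lists. With equal numbers of top peaks 10 did, and with that q in the vehicle lists alone 26. With a −log10 q of at least 5 in all lists there were 332 members, 22.3% of them at promoters and 51.8% in introns, with a median score of 36.2, a width of 885 bp, a GC content of 49.7%, a RUNX share of 6.02% and 3 interferon-stimulated genes. With the 20354 top peaks of each list there were 193 members, with 25.4% at promoters, 36.8% in introns, 29.5% between genes, a score of 54.2, a width of 1023 bp, a GC content of 50%, a GATA share of 9.33%, an interferon core share of 16.1%, a RUNX share of 6.74% and 6 erythroid genes. With a −log10 q of at least 5 in the vehicle lists alone there were 118 members, with 24.6% at promoters, 45.8% in introns, a score of 36.0, a width of 851 bp, an interferon core share of 6.78%, a RUNX share of 2.54%, 5 erythroid and 2 interferon-stimulated genes. Gaps of up to 500 bp merged gave a width of 972 bp and 2 interferon-stimulated genes, and no merging a score of 36.2 and a width of 466 bp. With the *GFI1-36S* lists exchanged there were 36 members, with 19.4% at promoters, 11.1% in exons, 50% in introns, a score of 10.7, a width of 617.5 bp, a GC content of 49.5%, a GATA share of 16.7%, interferon core and RUNX shares of 13.9% each, and 0 erythroid and 0 interferon-stimulated genes. A promoter window of 3 kb gave 31.9% at promoters, 4.42% in exons and 45.9% in introns. Genes within 50 kb included 11 interferon-stimulated genes, among 1114 coding genes (5.08% of all). The coding genes nearest to a member numbered 491 in the main setting. They numbered 310 with that q in all lists, 110 with it in the vehicle lists alone and 186 with equal numbers of top peaks. Merged gaps gave 378, and the exchanged lists 36. Leaving out the libraries of 1 genotype gave 1426 to 5371 members, the highest number without *GFI1-36N* and 1581 without *GFI1-KD*, with scores of 15.9 to 24.2, widths of 463 to 577 bp, 19.9% to 23.9% between genes, 16 to 34 erythroid genes and 7 to 15 interferon-stimulated genes. These settings relax the rule by leaving out lists, and the coding genes nearest to a member rose as well. They numbered 1167 without *GFI1-36S*, 3291 without *GFI1-36N* and 1264 without *GFI1-KD*. The cause of the other changes was not tested. With autosomes alone, and with the *GFI1-36S* curcumin list left out of the rule, each value stayed within 1.5 times of the count or within the interval of the share or median. No paired analysis was possible because the values come from no test and the replicate numbers, 1 in each group, do not pair samples. A comparison over the 3 genotypes as pairs was not run. The lists hold no values where no peak was called, so that the signal at members in the curcumin libraries is unknown, and 15 to 19 fragments at a summit were the fewest behind a member's vehicle peak.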

Other observations

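The 13 regions with a peak in all curcumin lists and in no vehicle list included an intergenic region at −7951 bp from the TSS of *Smoc1*, with folds of 10.2, 17.5 and 15.1 in *GFI1-36S*, *-36N* and *-KD* curcumin, an intronic region of the lymphoid zinc-finger gene *Ikzf2* with 3.74, 5.19 and 20.7, and a promoter region of *Prdm16*, a regulator of stem cells, with 4.81, 6.06 and 10.6. These 3 were chosen after their values were seen.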
